A study of Mus musculus with 6 samples.

Results

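Interferon-induced genes were followed across the mouse brain at postnatal day 21 (P21), in the adult and at 28 months (aged). The set was fixed as 8 gene symbols, Ifit1, Ifit3, Ifitm3, Isg15, Irf7, Irf9, Bst2 and Oasl2, and a row with the symbol was found in all section matrices for 7 of them, among 19465 genes of the probe panel. Isg15 was not analysed here. Type I interferons are cytokines released on sensing of viral or misplaced nucleic acid. They bind the receptor chains Ifnar1 and Ifnar2, and the signal reaches transcription factors, Irf9 among them, that bind promoters of interferon-stimulated genes. In the brain such genes are known to respond in microglia, endothelium and the choroid plexus, the secretory tissue of the ventricles.

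Coronal brain sections, formalin-fixed and paraffin-embedded, of male, untreated C57BL/6J mice were profiled by Visium, in which pairs of probes are counted as unique molecular identifiers (UMIs) at spots of known position, each spot holding several cells. There were 2 sections of P21 mice bred in house, 2 of adult mice (12 to 15 weeks) from a commercial breeder and 2 of aged mice (28 months) from the National Institute on Aging. The genotype of every section is given as C57BL/6J alone. The P21 and adult sections were placed on version 1 slides, whereas the aged sections reached version 2 slides through a CytAssist instrument and a later Space Ranger release, so that in every aged-against-adult comparison age cannot be told apart from source of mice, slide version, transfer and software. In every P21-against-adult comparison age cannot be told apart from source of mice.

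The sections held between 42422997 and 106783660 UMIs over 20336 spots that passed the filters. Low-level background was higher in the aged sections: of 1178 olfactory and vomeronasal receptor genes, which the brain should hardly use, 99.5% had a UMI in each aged section against 30.1 to 59.3% in the P21 and adult sections, with a median of 0.171 and 0.187 CPM (counts scaled to a section total of 1000000) in the aged sections and at most 0.0111 CPM elsewhere. Spots were clustered without the interferon-induced genes and without immune marker genes, and clusters were joined into 10 zones by markers: the ventricular system (VS), meninges and vessels (MV), fiber tracts (FT), cortex (CTX), striatum (STR), hippocampus (HP), medial habenula (MH), thalamus (TH), reticular thalamus (RT) and hypothalamus (HY). The VS had 49 and 43 spots at P21, 32 and 13 in the adult and 72 and 81 in the aged sections. Its choroid plexus markers were present in all sections, led by Ttr (transthyretin) at 58590 and 60990 CPM at P21, 103300 and 110200 CPM in the adult and 133100 and 110700 CPM in the aged VS.

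Most of the genes encode effectors. Ifit1 and Ifit3, which lie close together on chromosome 19 (GRCm38, chr19:34640871-34650009 and chr19:34583531-34588731, + strand), belong to a family with members that bind foreign RNA. Ifitm3 (chr7:141009586-141010770, − strand) blocks fusion of viruses with endosomes, and Bst2, or tetherin (chr8:71534255-71537456, − strand), holds budding virions at the cell surface. Oasl2 (chr5:114896936-114912234, + strand) belongs to the oligoadenylate synthetase-like family. The transcription factors are Irf7 (chr7:141262706-141266481, − strand), which drives interferon genes, and Irf9 (chr14:55603571-55610030, + strand), which binds DNA at interferon-stimulated genes. Ifitm3 has the close relatives Ifitm1 and Ifitm2 in the panel, and Ifit1 has Ifit1bl2, so probe sharing between them is uncertain.

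The promoter stretches of the genes are shown because the interferon-stimulated response element is the letter pattern that these genes are known to share. The pattern GAAA, then any 2 bases (N), then GAAA again was searched on both strands of RefSeq windows (GRCm38.p6) running from 250 bases before to 50 bases after each annotated start. It was found in 1131 of 32851 windows (3.443%) and in the windows of 4 of the 7 genes, while no match stood in the windows of Oasl2, Irf7 and Irf9. Capitals mark the matches, read 5′ to 3′ on the strand of the gene, where a match on the other strand appears as its reverse complement.
Ifit1, chr19:34640765-34640833 (+), 124 to 56 bases before the start: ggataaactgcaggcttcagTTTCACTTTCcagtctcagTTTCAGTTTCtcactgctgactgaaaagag
Ifit3, chr19:34583353-34583436 (+), 176 to 93 bases before the start: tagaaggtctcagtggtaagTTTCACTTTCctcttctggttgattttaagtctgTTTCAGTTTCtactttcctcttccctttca
Bst2, chr8:71537567-71537622 (−), 150 to 95 bases before the start: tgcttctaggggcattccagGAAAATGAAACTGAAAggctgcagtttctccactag
Ifitm3, chr7:141010716-141010742 (−), bases 3 to 29 after the start: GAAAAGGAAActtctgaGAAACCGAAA
Ifit1 and Ifit3 each carried 2 separate matches, Bst2 carried 2 that overlap, and those of Ifitm3 lay after the start.

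Over whole sections, Ifit1, Ifit3 and Irf9 were higher in the aged than in the adult brain, and none of the 7 genes was lower. Ifit3 had 5.31 and 3.75 CPM at P21, 6.08 and 5.48 CPM in the adult and 9.85 and 11.5 CPM in the aged sections. Ifit1 had 2.89 and 1.86 CPM at P21, 2.46 and 1.93 CPM in the adult and 4.24 and 4.18 CPM in the aged sections. Irf9 had 15.2 and 14.0 CPM at P21, 12.1 and 10.9 CPM in the adult and 19.7 and 17.7 CPM in the aged sections. For each of these genes, and for Ifitm3 and Oasl2, both aged sections lay above all P21 and adult sections. Such separation was not counted over all genes.

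By edgeR's quasi-likelihood test on UMIs summed per section, with Benjamini-Hochberg adjustment over all 18104 genes tested, the aged sections were above the adult by 1.78-fold for Ifit1 (log2 fold change 0.83 ± 0.20 SE, adjusted p = 0.0043), 1.72-fold for Ifit3 (0.78 ± 0.15, adjusted p = 0.0013) and 1.51-fold for Irf9 (0.59 ± 0.10, adjusted p = 6.3e-04). Calls needed both an adjusted p below 0.05 and more than a 1.5-fold difference. Of all genes tested, 23.8% were called higher and 4.68% lower in this comparison, beside 3 and 0 of the 7. Ifitm3, with 18.3 and 14.9 CPM in the adult and 24.5 and 25.3 CPM in the aged sections, passed the p threshold (adjusted p = 0.0050) but not the fold (1.39). Oasl2 (1.37-fold, adjusted p = 0.075), Bst2 (1.35-fold, adjusted p = 0.11) and Irf7 (1.12-fold, adjusted p = 0.57) were not called. The call for Irf9 was close to the fold threshold: its log2 fold change was 0.51 without adult section 2, 0.50 without aged section 1, 0.58 without P21 section 2 and 0.58 with no filter on low counts, under the threshold each time. That for Ifit1 was 0.58 with the VS and MV spots left out. Ifitm3 was called without adult section 1 (0.61, adjusted p = 0.0044).

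At P21, none of the genes was called against the adult over whole sections by edgeR or by DESeq2, where 5.69% of all genes were called higher and 2.37% lower by edgeR; the unadjusted p was under 0.05 for 3 of them. Bst2 had 20.5 and 10.7 CPM at P21 against 11.4 and 9.99 CPM in the adult (log2 fold change 0.56, adjusted p = 0.091), and Irf7 had 4.72 and 2.69 CPM against 2.93 and 2.24 CPM (0.55, adjusted p = 0.13). In both genes P21 section 1 stood well above P21 section 2. Without P21 section 2, Bst2 (0.93, adjusted p = 0.0035) and Irf7 (0.86, adjusted p = 0.043) were called. Irf9 was 1.27-fold higher at P21 (adjusted p = 0.036), short of the fold threshold.

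**Figure D1:**
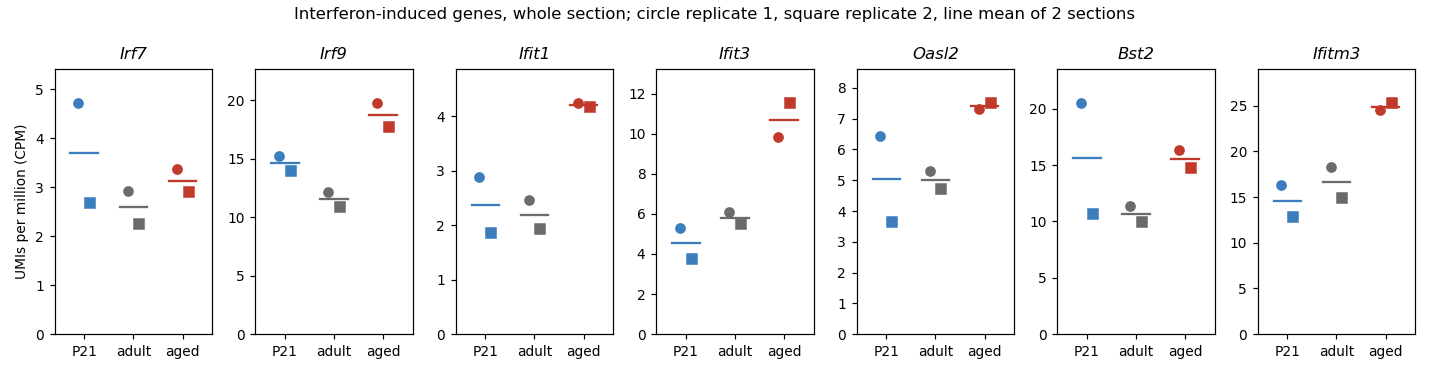
Level of each of the 7 genes over whole sections, in CPM, with a point for each of the 2 sections of the P21, adult and aged groups and a bar at their mean. Ifit1, Ifit3, Irf9, Ifitm3 and Oasl2 lay higher in both aged sections than in any other section, whereas Irf7 and Bst2 had their highest value in P21 section 1.

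Within a section the genes were not evenly spread. Against the CTX of the same section, all 7 genes were higher in the MV, FT and HY in the mean of 6 sections, with mean log2 ratios of 0.86 to 3.17 in the MV, 0.74 to 1.66 in the FT and 0.39 to 1.12 in the HY. Over 49 pairs of gene and zone, 33 passed an exact two-sided sign-flip permutation test over sections (p = 0.03125, the smallest that 6 sections allow, adjusted p = 0.046), all with the zone above the CTX in 6 of 6 sections. The others were Bst2, Ifitm3 and Oasl2 in the HP, Ifit3, Ifitm3, Irf7, Irf9 and Oasl2 in the TH, Bst2, Ifitm3 and Irf9 in the STR, and Oasl2 in the RT. With only spots whose neighbours belong to the same zone, no pair passed, as fewer pairs reached the smallest p, whose adjusted value was then 0.064. These ratios were taken for the 7 genes only, so no share over all genes can be set beside the 33 pairs.

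The order of zones differed with age. The MH, with 3 spots in adult section 1, was left out of the order. In the adult, the MV had the highest mean level of Ifit1, Ifit3, Ifitm3, Irf7 and Oasl2, and the VS that of Irf9 and Bst2. The same zones led at P21. In the aged sections the VS stood highest of the 9 zones for each of the 7 genes, and its lower section was above the higher section of the next of them, which was the FT for Irf9 and the MV for the others. The order was taken for the 7 genes only, so the share of all genes highest in the aged VS is not known. The aged MH, at 13.7 and 22.2 CPM of Ifit1 and 19.3 and 23.9 CPM of Oasl2, had a higher mean than the MV for these genes and lay below both aged VS sections. Ifitm3 shows the shift: the MV held 91.6 and 90.6 CPM and the VS 56.9 and 77.7 CPM in the adult, against 95.6 and 166 CPM in the MV and 340 and 274 CPM in the VS of the aged sections.

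In the VS all 7 genes rose in the aged sections. Ifit1 counted 6 and 1 UMIs at P21, 2 and 1 in the adult, and 122 and 62 in the aged VS, or 3.28 and 1.17, 1.75 and 2.43, and 83.6 and 37.9 CPM. Ifit3 had 8.19 and 5.86 CPM at P21, 4.38 and 9.72 CPM in the adult and 102 and 55.0 CPM in the aged VS. Oasl2 had 5.46 and 7.04 CPM at P21, 8.76 and 19.4 CPM in the adult and 114 and 52.6 CPM in the aged VS. For these effectors both aged sections lay above all P21 and adult sections, and aged section 1 was above aged section 2. How many of all genes were separated in this way was not counted.

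Bst2 and Ifitm3 already had a level in the young VS. Bst2 had 48.1 and 45.7 CPM at P21, 77.1 and 104 CPM in the adult and 411 and 297 CPM in the aged VS. Ifitm3 had 42.6 and 31.7 CPM at P21, 56.9 and 77.7 CPM in the adult and 340 and 274 CPM in the aged VS. Their adult sections lay above the P21 sections and far below the aged sections. The transcription factors were higher as well. Irf7 had 6.01 and 7.04 CPM at P21, 3.50 and 7.29 CPM in the adult and 33.6 and 17.1 CPM in the aged VS, and Irf9 had 30.6 and 36.4, 21.0 and 19.4, and 70.5 and 45.2 CPM. Adult Irf9 was thus below both P21 sections, and aged Irf9 above all others.

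Against the adult, the fitted change in the aged VS was 30.4-fold for Ifit1 (log2 fold change 4.93 ± 0.62 SE, edgeR adjusted p = 5.3e-06) and 13.5-fold for Ifit3 (3.75 ± 0.44, adjusted p = 2.8e-06). As the adult VS held only 3 UMIs of Ifit1 in all, the ratio of pooled UMIs was also taken, at 30.8 with an exact 95% interval of 10.4 to 151, which covers counting error only. Oasl2 was 7.14-fold higher (2.84 ± 0.42, adjusted p = 3.4e-05), Irf7 5.55-fold (2.47 ± 0.55, adjusted p = 0.0025) and Ifitm3 4.91-fold (2.30 ± 0.21, adjusted p = 8.5e-08). Bst2 was 4.18-fold higher (2.06 ± 0.21, adjusted p = 3.1e-07) and Irf9 2.86-fold (1.52 ± 0.31, adjusted p = 0.0011). All 7 of 7 were called by edgeR and 6 by DESeq2, which gave no adjusted p for Irf7, against 7.79% of the 11996 genes tested in the VS, and the median log2 fold change of the 7 was 2.47 against 0.027 over all genes. A gene entered the fit only with enough counts in at least 2 sections. In the P21 and adult VS, Ifit1 had at most 3.28 CPM and Irf7 at most 7.29 CPM, so their entry rested on the aged sections. The VS was tested after its spot numbers were known, since adult section 2 had fewer than the 20 spots set for a zone. Without adult section 1, Irf7 (adjusted p = 0.23) and Irf9 (adjusted p = 0.063) were not called, nor was Irf7 without aged section 1 (adjusted p = 0.053).

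**Figure D2:**
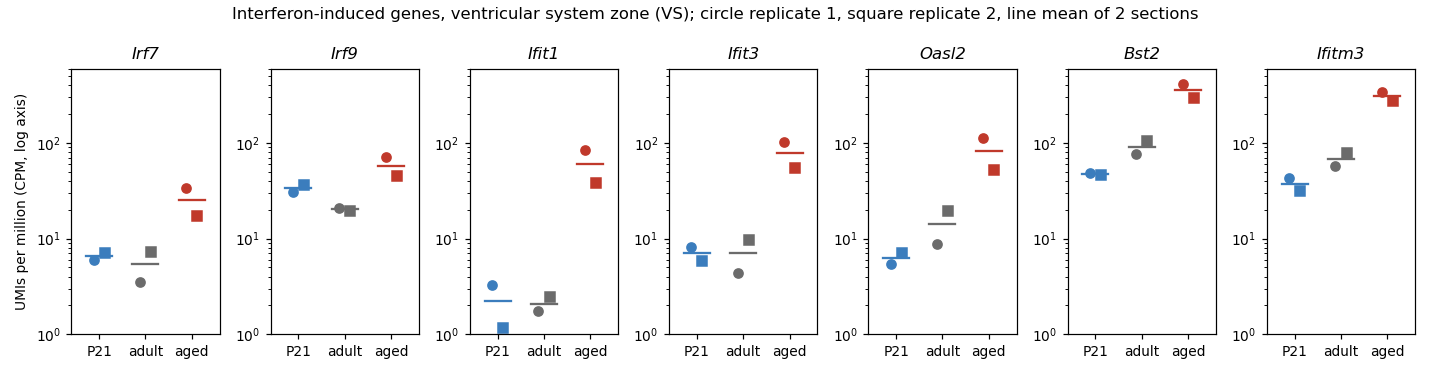
Level of each of the 7 genes in the VS, in CPM on a log axis, with a point for each of the 2 sections of the P21, adult and aged groups and a bar at their mean. Each gene had both aged sections above all P21 and adult sections, and aged section 1 was the highest throughout. The share of all genes with such a separation was not counted.

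The VS held a small part of the tissue and a large part of these transcripts in the aged sections. It took 1.78 and 1.53% of all UMIs of the aged sections, 2.17 and 0.804% of those of the adult and 2.03 and 2.01% at P21. Of all Bst2 UMIs of a section, 4.77 and 8.61% lay in the VS at P21, 14.8 and 8.40% in the adult and 44.8 and 30.9% in the aged sections. For Ifit1 the share was 2.31 and 1.27% at P21, 1.55 and 1.01% in the adult and 35.1 and 13.9% in the aged sections. The aged share was thus above the share of all UMIs for both genes, whereas that of Ifit1 in the adult was near it.

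Spots were also compared at equal depth, by thinning each to 5000 UMIs. At least 3 of the 7 genes were then seen together in 42 of 66 VS spots of aged section 1 (63.6%) and 25 of 79 of aged section 2 (31.6%), against 0 of 32 (which allows up to 9.38%) and 1 of 13 in the adult and 1 of 49 and 4 of 43 at P21. The shallower VS spots left out numbered 6 and 2 in the aged sections and none in the others. In the CTX such spots made up at most 0.10% in any section. Bst2 alone was seen in 66.7 and 45.6% of aged VS spots, in 18.8 and 23.1% of adult VS spots and in 3.02 to 6.14% of CTX spots across all sections. Before thinning, Bst2 was seen in 79.2 and 72.8% of aged and 59.4 and 46.2% of adult VS spots, with median depths of 14592 and 15140 UMIs in the aged VS and 31871 and 24635 in the adult VS.

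The VS spots were split by Ttr, the main product of choroid plexus epithelium, into spots with at least 5% of their UMIs from Ttr and the rest, which hold more of the ventricle lining. In the Ttr-rich spots Bst2 had 98.0 and 96.6 CPM at P21, 105 and 123 CPM in the adult and 536 and 446 CPM in the aged sections. In the remaining VS spots it had 22.97 and 19.5, 33.8 and 69.7, and 153 and 130 CPM. Bst2 was therefore higher where Ttr was high, at every age, and higher in the aged sections in both parts. Ifit3 ran the other way in the aged sections, with 77.3 and 37.0 CPM in the Ttr-rich spots and 153 and 75.3 CPM in the rest. In the adult it had 2.87 and 14.9 CPM in the Ttr-rich spots and 6.76 and 0 CPM in the rest, the latter from 7 spots whose depth allows up to 20.9 CPM. Ifitm3 was likewise higher outside the Ttr-rich spots of the aged sections, at 432 and 292 CPM against 296 and 258 CPM. These splits are given as levels, with no test.

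Markers of other cells were read in the same VS spots. The choroid plexus list summed to 106300 and 113500 CPM in the adult and 137200 and 113500 CPM in the aged VS, with 9 of its 9 genes seen in every section and 1 of 9 called higher. The ependymal list summed to 880 and 1176 CPM in the adult and 1100 and 1215 CPM in the aged VS, with 2 of 8 called higher. The reactive microglia list rose, from 1453 and 1484 CPM in the adult to 3645 and 4113 CPM in the aged VS, with 8 of 10 tested genes called higher. The homeostatic microglia list stood at 408 and 498 CPM in the adult and 742 and 791 CPM in the aged VS, with 3 of 10 called higher. The T and NK cell list had 1.75 and 2.43 CPM in the adult, where 2 and 1 of its 12 genes had a UMI, and 17.1 and 33.6 CPM in the aged VS, where 10 of 12 had a UMI in each section, beside 3.14 and 1.44% of the olfactory and vomeronasal receptor genes in the adult and 45.2 and 52.9% in the aged VS. The erythrocyte list summed to 125 and 82.6 CPM in the adult and 294 and 748 CPM in the aged VS (4 of 4 called higher). The neuron list fell, with 6 of 8 called lower. Of all genes tested in the VS, 7.79% were called higher, and the share called lower is not given here. The part of these shifts in the rise of the interferon-induced genes was not tested. In such spots a change in the number of cells of a type and a change in RNA per cell cannot be told apart.

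Levels fell with distance from the VS in the aged sections. Ifit3 had 102 and 55.0 CPM in the VS of the aged sections, 36.1 and 35.0 CPM at the spots next to it, 20.7 and 24.99 CPM at 2 grid steps and 14.1 and 9.83 CPM at 3. Farther than 12 grid steps it had 7.29 and 10.8 CPM. In the adult sections Ifit3 was not highest in the VS, with 4.38 and 9.72 CPM there and 8.11 and 13.8 CPM next to it. Farther than 12 steps it had 7.02 and 5.43 CPM. Adult section 2 fell from 13.8 CPM next to the VS to 8.98 CPM at 2 steps and 3.38 CPM at 3. The adult VS held only 5 and 4 UMIs of Ifit3. At P21, Ifit3 had 8.19 and 5.86 CPM in the VS and 4.88 and 8.20 CPM next to it. At 2 steps it had 3.39 and 8.97 CPM, and farther than 12 steps 6.72 and 2.90 CPM. Ifitm3 in the aged sections went from 340 and 274 CPM in the VS to 121 and 110 CPM next to it and 15.5 and 18.1 CPM farther than 12 steps. Bst2 fell more steeply, from 411 and 297 CPM to 50.3 and 43.2 CPM next to the VS and 7.42 and 8.11 CPM farther than 12 steps. Bst2 and Ifitm3 also fell from the VS to the spots next to it in the younger sections. In the adult, Bst2 went from 77.1 and 104.5 to 28.4 and 13.8 CPM and Ifitm3 from 56.9 and 77.7 to 29.8 and 27.6 CPM. At P21, Bst2 went from 48.1 and 45.7 to 15.4 and 27.1 CPM and Ifitm3 from 42.6 and 31.7 to 14.6 and 20.5 CPM. Ttr farther than 12 steps had 33.0 and 26.8 CPM in the aged sections and 302 to 547 CPM in the P21 and adult sections. The part of this difference in the courses was not tested.

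**Figure D3:**
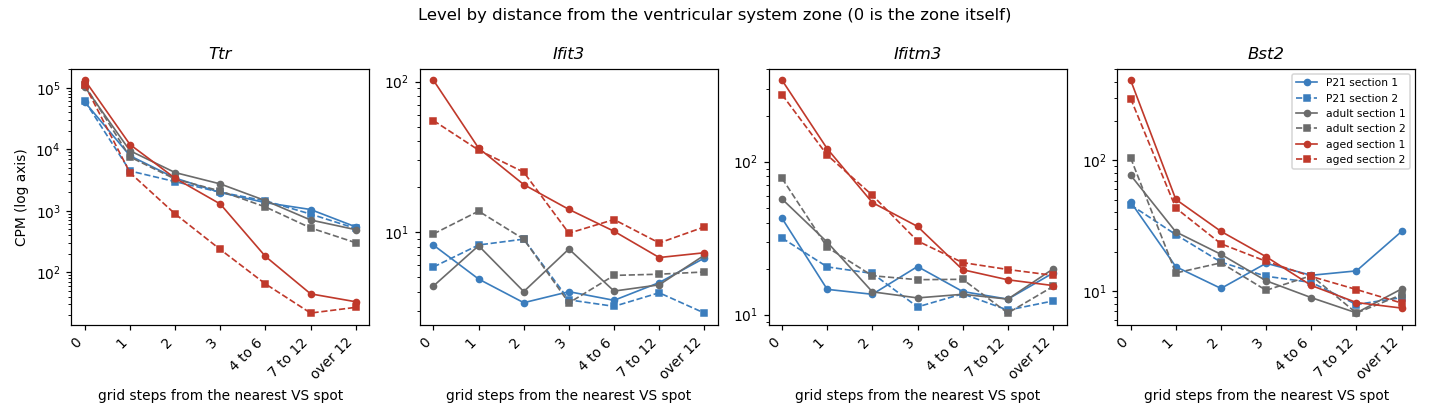
Levels of Ttr, Ifit3, Ifitm3 and Bst2 in CPM on a log axis against the distance to the nearest VS spot in grid steps, 1 line per section coloured by age. The 2 aged lines start above all others for the 3 interferon-induced genes and fall towards the other lines with distance, while Ttr falls in every section. Bst2 and Ifitm3 also fall from the VS to the spots next to it in the P21 and adult sections.

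The FT, the white matter zone, had 6 of the 7 genes called higher in the aged sections, where 18.3% of all genes tested were called higher. Ifitm3 had 22.99 and 12.6 CPM at P21, 22.8 and 20.3 CPM in the adult and 54.7 and 70.8 CPM in the aged FT, 2.95-fold above the adult (adjusted p = 8.2e-07). Oasl2 was 2.41-fold higher in the aged FT, Ifit3 2.21-fold, Bst2 2.12-fold, Ifit1 1.98-fold and Irf9 1.98-fold, and Irf7 was not called. Ifit3 had 8.03 and 7.74 CPM in the adult and 16.2 and 18.4 CPM in the aged FT, and Bst2 had 15.9 and 14.0 CPM against 25.5 and 37.2 CPM. In these genes the aged sections lay above both adult sections, with Bst2 and Oasl2 highest in aged section 2. In both aged sections the 7 genes were each higher in FT spots within 3 grid steps of the VS than farther away. How many of all genes were so was not counted. The gap was small for Irf7, at 6.20 and 6.24 CPM near the VS and 5.82 and 5.03 CPM farther away. It was wider for Ifitm3. Within 3 grid steps of the VS, FT spots had 96.4 and 132 CPM of Ifitm3 in the aged and 23.1 and 25.2 CPM in the adult sections. Farther away they had 38.0 and 44.7 CPM in the aged and 22.6 and 19.0 CPM in the adult sections.

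Of these calls, those of Ifitm3, Ifit3 and Irf9 were also made by DESeq2, and 3 to 6 were made when 1 section was left out. Irf7 was called without adult section 1 (adjusted p = 0.039). Oasl2 (adjusted p = 0.056) and Bst2 (adjusted p = 0.11) were not called without aged section 2, and Ifit1 was not called without either adult or either aged section (adjusted p = 0.075 to 0.16). In spots whose neighbours all belong to the FT, Oasl2 (log2 fold change 0.42, adjusted p = 0.54) and Ifit1 (0.66, adjusted p = 0.30) were not called. With counts thinned to the lowest total, Bst2 (adjusted p = 0.0502) and Ifit1 (adjusted p = 0.25) were not called. The reactive microglia list summed to 1266 and 1282 CPM in the adult and 5034 and 5639 CPM in the aged FT, with 11 of 11 tested genes called higher. The homeostatic microglia list summed to 622 and 704 CPM in the adult and 1489 and 1521 CPM in the aged FT, with 7 of 11 called higher. The T and NK cell list went from 5.02 and 6.92 CPM, where 5 and 6 of its 12 genes had a UMI, to 25.7 and 51.3 CPM, where all 12 had one (6 of 6 tested called higher). Genes of this list low in the P21 and adult FT could pass the filter on low counts through the aged sections alone. Of all genes tested in the FT, 18.3% were called higher. Of the olfactory and vomeronasal receptor genes, 9.42 and 7.30% had a UMI in the adult FT and 94.4% in each aged FT. The part of these markers in the result was not tested. The FT was joined from clusters that hold different shares of the groups, and within the cluster with the most P21 and adult spots Ifitm3 had 25.8 and 19.1 CPM in the adult and 36.4 and 36.2 CPM in the aged sections. Another of these clusters held 286 and 267 of the 432 and 378 aged FT spots. It held only 16 and 28 of the 334 and 394 adult FT spots. That cluster had 9 FT marker genes raised and was led by C4b, Apod and Klk6. The part of this mix of clusters in the FT calls was not tested.

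In the HP, 6 of 7 genes were called higher in the aged sections, against 6.16% of all genes tested. Oasl2 had 3.06 and 3.86 CPM in the adult and 5.63 and 14.6 CPM in the aged HP (3.05-fold), and Ifit3 had 3.38 and 5.004 CPM against 5.88 and 16.4 CPM (2.77-fold). Ifitm3 had 15.1 and 11.4 CPM against 18.5 and 32.1 CPM (1.99-fold). In these genes most of the change came from aged section 2. Ifit1 was 2.99-fold, Bst2 1.92-fold and Irf9 1.76-fold higher, and Irf7 was not called. Without adult section 2 none of the 7 was called by edgeR (adjusted p = 0.051 to 0.094 for the 6), and without aged section 2 Oasl2, Ifit3 and Ifitm3 lost the call. Oasl2 (adjusted p = 0.087) and Ifit3 (0.14) also lost it without adult section 1, and DESeq2 called 5 genes, Ifit1 not among them (adjusted p = 0.055). HP spots more than 3 grid steps from the VS kept the gap between the aged sections, with Ifit3 at 4.79 CPM in aged section 1 and 16.6 CPM in aged section 2. The adult sections had 3.36 and 4.935 CPM of Ifit3 there, so aged section 1 lay within the adult range. Ifitm3 in those spots had 15.9 and 11.8 CPM in the adult and 15.7 and 32.95 CPM in the aged sections. Ifit1, Oasl2, Bst2 and Irf9 were above both adult sections there in both aged sections. The reactive microglia list summed to 843 and 771 CPM in the adult and 1066 and 1239 CPM in the aged HP (5 of 9 called higher), and the T and NK cell list to 4.99 and 2.72 against 4.76 and 7.06 CPM.

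In the other tested zones fewer of the genes were called. Irf9 was called higher in the aged CTX (1.64-fold, 1 of 7 genes against 8.35% of all), where it had 9.31 and 9.19 CPM in the adult and 16.4 and 14.2 CPM in the aged sections. It was called in the TH with Ifit3 (2 of 7 against 7.25%), in the HY with Ifit3 (2 of 7 against 6.57%) and in the RT (1 of 4 tested against 7.73%). Irf9 was 1.52-fold higher in the TH, 1.78-fold in the HY and 2.24-fold in the RT. Ifit3 had 7.55 and 6.17 CPM in the adult HY and 14.2 and 13.8 CPM in the aged HY (1.99-fold), and the aged sections lay close together. In the TH Ifit3 had 4.89 and 4.76 CPM in the adult and 6.67 and 14.7 CPM in the aged sections (2.24-fold). Without the 7 spots of a focus described later, aged section 2 had 9.13 CPM in the TH.

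These calls rested on few sections. With 1 section left out, the number called was 0 or 1 in the CTX and RT, 1 to 3 in the TH and 0 to 2 in the HY. Ifit3 lost its TH call without adult section 1, adult section 2 or aged section 2 (adjusted p = 0.091 to 0.099), and its HY call without adult section 1 (adjusted p = 0.054) or 2 (adjusted p = 0.10). Irf9 was not called in the CTX without aged section 1 (log2 fold change 0.58), in the HY without adult section 2 (adjusted p = 0.053), in the TH without adult section 1 (adjusted p = 0.060) or aged section 1 (log2 fold change 0.54), nor in the RT without adult section 1, adult section 2 or aged section 2 (adjusted p = 0.097 to 0.15). DESeq2 did not call Irf9 in the RT (adjusted p = 0.32). In the TH, Irf9 fell short of the fold threshold with plain CPM, with no filter, after thinning and in interior spots (log2 fold change 0.50 to 0.58), and Ifit3 was not called with no filter (adjusted p = 0.072) or in interior spots (0.077), where it also lost its HY call (0.067).

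In the MV and STR no gene was called in the aged sections by edgeR or DESeq2, where 7.74 and 8.23% of all genes were called higher. The unadjusted edgeR p was under 0.05 for 3 of 7 genes in the MV and 1 of 6 tested in the STR. Bst2 had 53.9 and 38.5 CPM in the adult MV and 34.3 and 31.3 CPM in the aged MV, both aged sections lying below both adult sections, unlike in the VS and FT. With zones from 20 principal components Bst2 was called lower in the aged MV (log2 fold change -0.75, adjusted p = 0.032). Without adult section 1 Ifit3 was called higher in the MV (adjusted p = 0.028) and the STR (adjusted p = 0.035), and without aged section 1 Ifitm3 was called higher in the MV (adjusted p = 5.3e-05). Ifit1 in the MV had 10.6 and 7.82 CPM in the adult and 4.71 and 16.5 CPM in the aged sections, so the groups overlapped. The MV also held the border macrophage list at 227 and 164 CPM in the adult and 203 and 289 CPM in the aged sections. The MH, with 3 spots in adult section 1, was not tested: Ifit3 there had 17.1 and 23.2 CPM in the aged sections, 6.78 CPM in the 25 spots of adult section 2 and 4.44 and 3.51 CPM at P21.

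**Figure D4:**
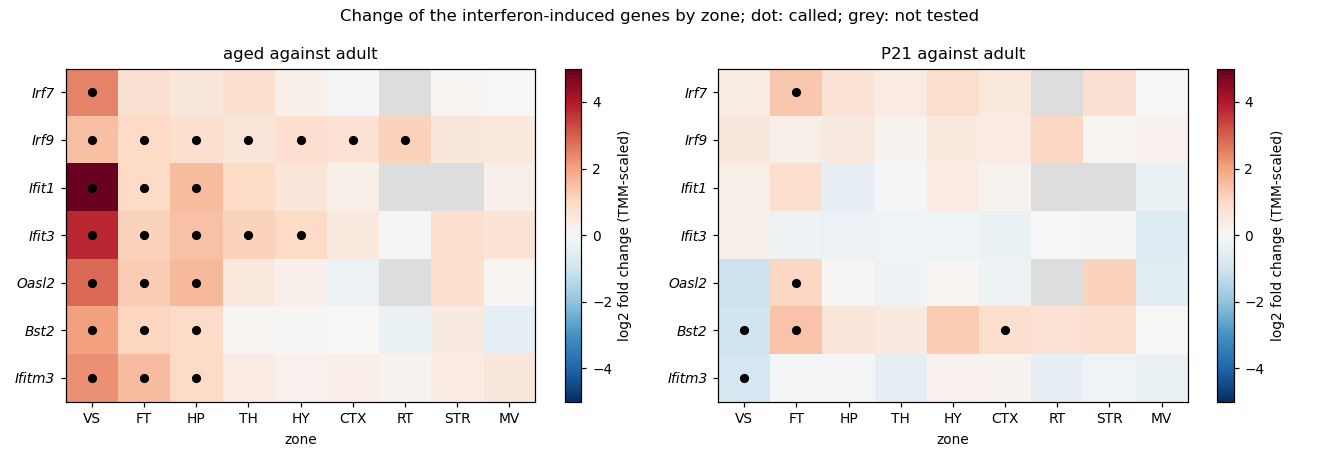
Fitted log2 fold change of each gene in each zone, in the aged sections against the adult and in the P21 sections against the adult; red is higher, blue lower, grey not tested, and a dot marks a called gene. All 7 genes carry a dot in the aged VS, 6 in the aged FT and 6 in the aged HP, and Ifit1 in the aged VS has the deepest red.

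The difference between zones was itself tested, in a fit with a term for each section. Over CTX, HP, TH, HY, STR and FT, the change from adult to aged differed between zones for Ifitm3 (adjusted p = 3.8e-04) and Oasl2 (adjusted p = 0.042), that is for 2 of 7 genes, where 39.3% of all genes differed. With the VS added, it differed for Ifitm3 (adjusted p = 2.6e-06), Ifit1 (4.9e-04), Bst2 (8.7e-04), Oasl2 (0.011) and Ifit3 (0.033), 5 of 7 genes where 38.8% of all genes differed, and not for Irf7 (0.11) or Irf9 (0.24). In the 6 zones the count was 1 without either P21 or either adult section, 5 without aged section 1 and 0 without the FT. From P21 to adult, none of the 7 differed between the 6 zones by edgeR, where 8.36% of all genes did, and Bst2 did with the VS added (adjusted p = 0.0062, 1 of 7 against 11.8%).

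Bst2 at P21 was above the adult in some zones and below it in the VS. In the CTX it had 11.8 and 7.27 CPM at P21 against 6.00 and 5.39 CPM in the adult (1.74-fold, adjusted p = 0.019, 1 of 7 called where 4.39% of all genes were called higher). In the VS it was 0.506-fold of the adult (adjusted p = 0.014), and Ifitm3 was 0.561-fold (adjusted p = 0.048), so that 2 of 7 genes were called lower where 3.65% of all genes were, and none higher where 3.33% were. The choroid plexus list fell with them in the P21 VS, with 9 of 9 genes called lower and Ttr at 58590 and 60990 against 103300 and 110200 CPM. Bst2 in the CTX was not called without P21 section 1 (adjusted p = 0.41), adult section 1 (0.063) or adult section 2 (0.11). In the VS, Ifitm3 was not called without any of the 4 sections compared (adjusted p = 0.077 to 0.29) or by DESeq2 (0.13), and Bst2 was not called without P21 section 1, P21 section 2 or adult section 2 (adjusted p = 0.091 to 0.11).

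In the FT at P21, Bst2 (2.67-fold, adjusted p = 0.0049), Irf7 (2.52-fold, adjusted p = 0.033) and Oasl2 (2.04-fold, adjusted p = 0.039) were called higher than in the adult by edgeR, 3 of 7 where 5.49% of all genes were, and none of them by DESeq2. Bst2 had 53.5 CPM in the FT of P21 section 1 and 14.8 CPM in that of section 2, beside 15.9 and 14.0 CPM in the adult. Irf7 had 11.1 and 2.73 CPM at P21 beside 4.52 and 2.14 CPM, and Oasl2 15.7 and 5.20 CPM beside 6.69 and 5.44 CPM. The high level thus belonged to P21 section 1. Without that section the log2 fold change was 0.038 for Bst2, -0.22 for Irf7 and -0.17 for Oasl2, and none was called; without adult section 2 Irf7 (adjusted p = 0.23) and Oasl2 (0.16) were not called. The oligodendrocyte list summed to 82660 and 97510 CPM in the P21 FT against 43940 and 42470 CPM in the adult (8 of 8 called higher), the erythrocyte list to 2078 and 990 against 284 and 144 CPM (4 of 4 called higher), and the reactive microglia list to 1112 and 956 against 1266 and 1282 CPM. Their part in the result was not tested. In the HP, TH, HY, STR, MV and RT no gene was called at P21 by edgeR, where 5.39, 4.86, 2.09, 2.7, 2.42 and 2.1% of all genes were called higher, while the unadjusted p was under 0.05 for 1 or 2 genes in each, and DESeq2 called Bst2 in the HY (adjusted p = 0.040) and none in the others. Bst2 was also called by edgeR in the HY without P21 section 2, aged section 1 or aged section 2 (adjusted p = 0.028 to 0.045), and in the HP without either aged section (adjusted p = 0.0097 and 0.010).

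To find where within a section the genes were high together, their summed CPM was averaged over each spot and its neighbours, and runs of at least 4 touching spots at 500 CPM or more were traced. As the genes chose the runs, their levels in them are a description only. P21 section 1 and adult section 1 had 1 run each, P21 section 2 and adult section 2 had none, aged section 1 had 3 and aged section 2 had 6. The runs covered 73 and 82 spots of the aged sections and held 24.2 and 17.3% of the summed UMIs of the 7 genes. The largest run of aged section 1 had 56 spots, 47 of them in the VS.

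The run of P21 section 1 had 26 spots, 18 of them in the FT, and held 5.63% of the section's UMIs of the 7 genes in 0.624% of all its UMIs. Bst2 stood there at 312 CPM against 18.7 CPM in the rest of the section, Irf7 at 78.3 against 4.26 CPM and Oasl2 at 67.6 against 6.07 CPM. Usp18, which switches off signalling at the type I receptor, had 80.1 CPM there against 15.5 CPM in the rest of the FT. The genes that led the run over the rest of the FT were Eln (elastin; 691 against 41.4 CPM) and Acta2 (smooth muscle actin; 137 against 13.8 CPM), the oligodendrocyte list summed to 83660 CPM, and 2 of the 12 genes of the T and NK cell list had a UMI. The run in adult section 1 had 9 spots of the MV, with Bst2 at 212 CPM and Ifitm3 at 200 CPM, and was led by the class II antigen-presentation genes H2-Aa (518 against 21.4 CPM in the rest of the MV) and H2-Eb1.

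Aged section 2 held a focus of 7 spots in the TH. Ifit3 had 362 CPM there and Ifit1 138 CPM, against 11.5 and 4.18 CPM over the whole section, and Oasl2 had 132 CPM, Irf7 and Irf9 each 81.6 CPM. Bst2, with 76.5 CPM, and Ifitm3, with 66.3 CPM, were below their own levels in the aged VS. The chemokine Cxcl10, which draws T cells, led the focus, with 515 CPM against 3.83 CPM in the rest of the TH. The T and NK cell list summed to 76.5 CPM there, with 9 of 12 genes seen, against 10.8 CPM in the rest of the section, and the reactive microglia list to 1223 against 1543 CPM; their part in the result was not tested. The focus was seen in 1 section and its level rests on 7 spots.

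**Figure D5:**
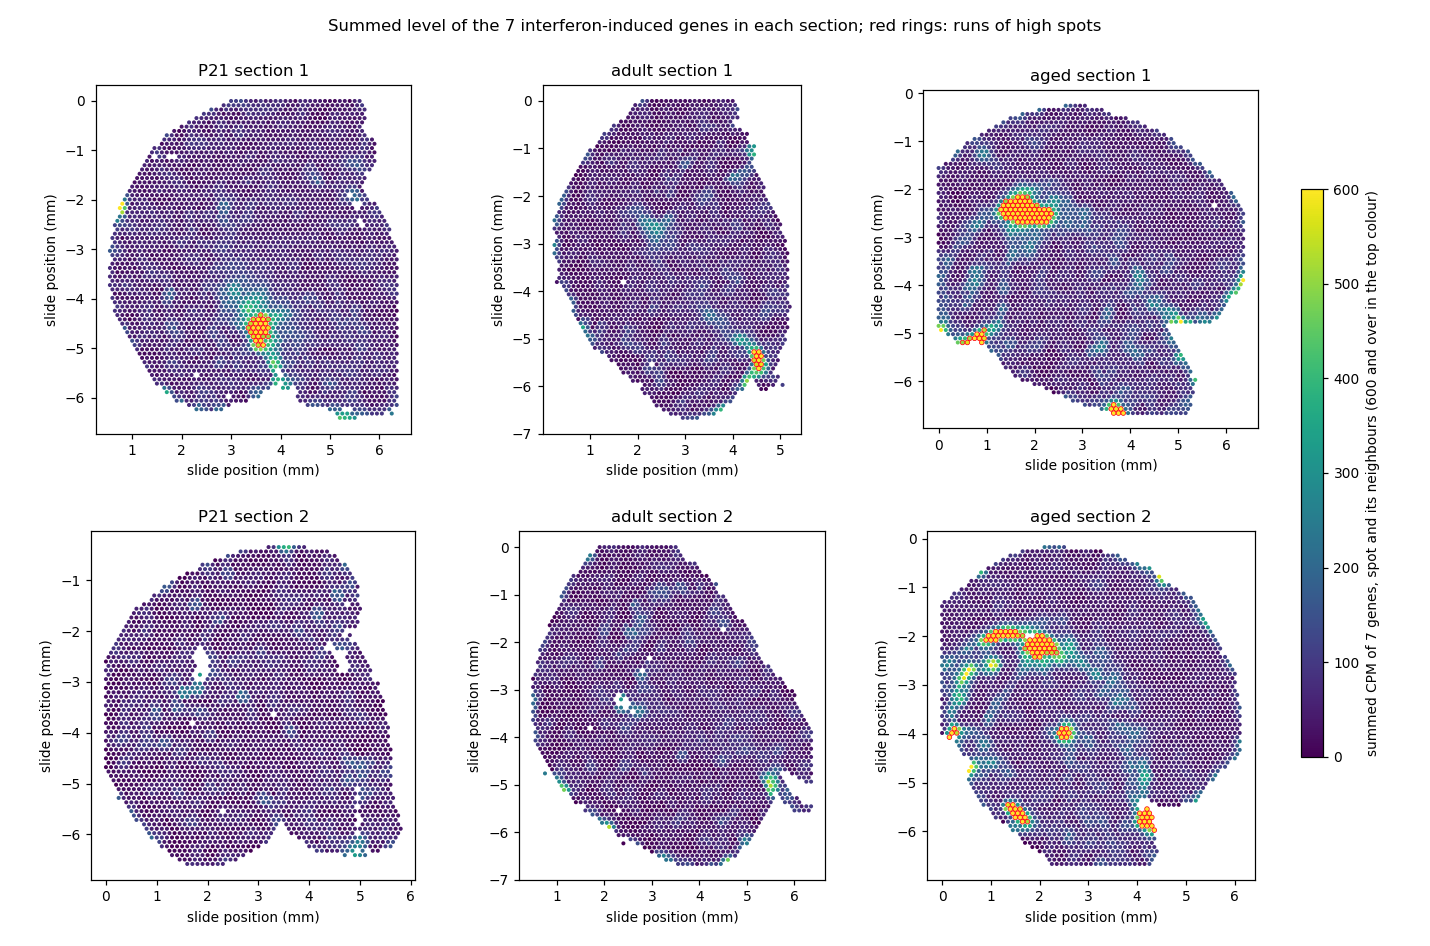
Summed CPM of the 7 genes at each spot, averaged with its neighbours, over the 6 sections at their positions on the slide in mm; colours end at 600 CPM and red rings mark the runs of high spots. The aged sections carry most of the rings, mainly at VS spots in aged section 1 and at VS, MV and TH spots in aged section 2, and P21 section 1 and adult section 1 carry 1 run each.

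Spatial clustering was also read from the Moran's I values deposited for each section, in which 0 stands for no clustering. Ifitm3 had 0.307 and 0.312 in the aged sections against 0.0677 and 0.0442 in the adult and 0.0627 and 0.0210 at P21. By rank within a section, it stood above 93.75 and 92.65% of the genes listed in the aged sections. The share was 82.5 and 77.1% in the adult and 79.3 and 65.1% at P21. Bst2 had 0.286 and 0.263 in the aged sections, 0.0986 and 0.0335 in the adult, and 0.247 and 0.0188 at P21. It stood above 93.0 and 90.5% of genes in the aged sections, 87.9 and 72.4% in the adult and 95.7 and 62.5% at P21. By rank, P21 section 1 was thus above both aged sections. Irf9 was the least clustered of the 7 in the aged sections, at 0.0327 and 0.0336. The high value of Bst2 at P21 was that of section 1, which held the run.

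The rest of the pathway was read from lists of ligands, receptors, regulators and targets. Over whole sections the interferon ligands had 6 of 8 tested genes called higher in the aged sections, all at levels near the background of those sections: the 16 ligands in the files summed to 0.610 and 0.566 CPM in the adult and 5.16 and 5.80 CPM in the aged sections. Of the 6 interferon receptors, 1 was called higher. Ifnar1 had 51.3 and 52.2 CPM in the adult and 39.0 and 42.8 CPM in the aged sections (0.734-fold, adjusted p = 3.0e-04, short of the fold threshold), and Ifnar2 had 34.1 and 34.1 against 37.3 and 34.1 CPM. The lists had 1 of 9 interferon regulatory factors (Irf4), 1 of 16 nucleic acid sensors and adaptors (Zbp1, a sensor of Z-form nucleic acid), 2 of 10 inhibitors of the response (Socs3, 1.78-fold, and the RNA editing enzyme Adar, 1.54-fold), 29 of 83 other interferon-induced genes and 5 of 23 interferon-gamma-induced genes called higher, where 23.8% of all genes tested were. The median log2 fold change was 0.39 for the other interferon-induced genes and 0.041 over all genes tested.

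In the VS many targets of the pathway were higher in the aged sections as well. Stat2, a transducer of the type I signal, had 14.0 and 2.43 CPM in the adult and 30.1 and 21.4 CPM in the aged VS (2.44-fold, adjusted p = 0.042). Usp18 had 4 and 0 UMIs in the adult VS, where 0 allows up to 7.29 CPM, and 93 and 50 in the aged VS, at 3.50 and 0 against 63.7 and 30.6 CPM (ratio of pooled UMIs 17.9, exact 95% interval 6.85 to 66.7, edgeR adjusted p = 3.5e-05). The receptor chains were not called, with Ifnar1 at 0.752-fold (adjusted p = 0.28) and Ifnar2 at 1.07-fold (adjusted p = 0.82). Called higher were 27 of 50 tested other interferon-induced genes, 13 of 15 interferon-gamma-induced genes, 5 of 6 MHC class I genes, 4 of 10 nucleic acid sensors and adaptors and 2 of 9 inhibitors of the response, where 7.79% of all genes tested were. The files held 84, 24, 9, 17 and 10 genes of these lists, and only those past the filter on low counts were tested. Genes low in the P21 and adult VS could pass that filter through the aged sections alone. None of the interferon ligands reached the level needed for a test, and 8 and 5 of the 16 had a UMI in the aged VS against 0 in both adult sections, beside the 45.2 and 52.9% of olfactory and vomeronasal receptor genes with a UMI in the aged VS and 3.14 and 1.44% in the adult VS.

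In the aged FT, 47 of 68 tested other interferon-induced genes, 16 of 20 interferon-gamma-induced genes and 13 of 16 nucleic acid sensors and adaptors were called higher, where 18.3% of all genes tested were. The files held 84, 24 and 17 genes of these lists, and the same limit on the tested genes holds. At P21, over whole sections, Usp18 was called higher, with 5.94 and 1.67 CPM at P21 against 1.81 and 1.48 CPM in the adult (2.41-fold, adjusted p = 0.046), and as with Bst2 the high value was that of P21 section 1. Isg20, an exonuclease, was 2.12-fold higher at P21 (adjusted p = 0.0062). Of the other interferon-induced genes, 4 of 83 were called higher at P21 and 5 lower (median log2 fold change -0.064). Of the interferon-gamma-induced genes, 0 of 23 were called higher and 6 lower (median -0.37). Among the inhibitors of the response, 2 of 10 were called higher and 0 lower, and the remaining pathway lists had no call. Of all genes tested, 5.69% were called higher and 2.37% lower.

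The 7 genes varied together over the 60 sums of section and zone, with Pearson's r between pairs from 0.568 to 0.881 (median 0.756), and from 0.417 to 0.845 (median 0.686) over the 54 sums without the VS. These sums share sections and depth, and r is given as a description. The genes most like the mean profile of the 7, of 13894 compared, were Lgals3bp (r = 0.92), Ddx58 (0.89), Trim56 (0.88), Eif2ak2 (0.88) and Irgm2 (0.86). Ifit1 was most like Irgm2 and Zbp1 (r = 0.78 for each), Ifit3 like H2-K1 (0.87) and Irgm2 (0.84), Irf7 like Ddx58 (0.854) and Rsad2 (0.825), and Oasl2 like Lgals3bp (0.89) and Eif2ak2 (0.83). The profiles of the other members had other neighbours: Ifitm3 was most like Txnip (0.94) and Prodh (0.92), Irf9 like Tmem179b (0.90) and Abhd14b (0.90), and Bst2 like Rab11fip1 (0.88) and Pdpn (0.88).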

How the data were processed

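The authors counted probe reads per gene and spot with Space Ranger against mm10 and deposited raw UMI counts, 1 matrix per section. The file headers name release 2.0.0 for the P21 and adult sections and 3.1.1 for the aged sections, whereas the submitters' processing notes name 2.1.0. Deposited spot barcodes, gene symbols and slide positions were used to place the counts, and barcodes shared between sections stand for the same slide position. The deposited Moran's I is a clustering score per gene and section, given with p-values that the authors' software computed over spots, which were not used here. Spots with at least 250 genes and 500 UMIs were kept, 20336 of 20348. The pipeline counts UMIs, so duplicate reads are removed before the values used here.

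Spots of all sections were clustered jointly by the Leiden algorithm on a graph of shared neighbours (10 principal components, resolution 0.5, 18 clusters). The studied genes and immune lists were left out, and clusters were named by marker genes. Counts were summed per section, and per section and zone. Levels are UMIs scaled to a total of 1000000 per sum (CPM). Tests were edgeR 4.0.16 quasi-likelihood fits with TMM factors over all genes kept by filterByExpr, P21 and aged each against adult, with Benjamini-Hochberg adjustment; SE is the log2 fold change over the root of F. The scripts were tested on simulated data. DESeq2 1.42.0, plain CPM, other filters, thinning, a replicate block, 20 principal components, interior spots and leaving out each section were tried. Motifs were searched in RefSeq windows.

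There were 2 sections per age, so precision is limited by their number. The labels call them biological replicates. Intervals cover counting error only. Some results of the pathway lists are not reported here. The genes, marker lists and pathway lists were chosen with earlier results of these data known. Beside the members, the text names at most 4 called genes per pathway list by fold change, Ifnar1, Ifnar2, Stat2, Usp18, and the genes most like each member; genes leading a run of high spots were named after their values were seen.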

Additional observations from a re-analysis of the deposited data

Results flagged for a closer look

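The change from adult to aged differed between zones for 2 of the 7 genes over 6 zones, where 39.3% of all genes differed, and for 5 of 7 once the VS was added, where 38.8% did, in the edgeR fit with a term for each section. That from P21 to adult differed for Bst2 with the VS added, where 11.8% of all genes differed. Among 6 zones (FT, CTX, HP, STR, TH and HY) the adjusted p of the difference between zones was 3.766e-04 for Ifitm3 and 0.04177 for Oasl2, in the aged against the adult sections. With the VS added it was 8.717e-04 for Bst2, 4.888e-04 for Ifit1, 0.03331 for Ifit3, 2.569e-06 for Ifitm3 and 0.01125 for Oasl2. For P21 against the adult with the VS added it was 0.006241 for Bst2.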

How the results depend on the processing

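Fold changes were recomputed for each gene called in a zone and for all 7 over whole sections: of 656 values, 567 were counted as the same, 83 lost the call, 4 gained it and 2 turned. A turn was counted for called genes only, so the 567 can hold uncalled genes whose direction changed. The 2 that turned were in the FT, P21 against adult: Oasl2 was -0.1667 and Irf7 -0.2241 (log2) without P21 section 1, the lowest of ranges that reached 1.43 and 1.956 with another section left out. Genes not called in a zone gained a call there 18 times. In the VS, aged against adult, 94 of 97 kept the call, DESeq2 gave no adjusted p for Irf7 (log2 fold change 2.44), and the log2 fold change ranged from 4.197 to 5.40 for Ifit1, 3.02 to 4.15 for Ifit3, 2.11 to 3.32 for Oasl2, 2.01 to 3.04 for Ifitm3, 1.73 to 2.31 for Bst2, 1.80 to 2.90 for Irf7 and 1.11 to 2.74 for Irf9. With 1 section left out, the number of the 7 genes called in the aged sections was 2 to 4 over whole sections, 5 to 7 in the VS, 3 to 6 in the FT, 0 to 6 in the HP, 1 to 3 in the TH, 0 to 2 in the HY and 0 to 1 in the CTX, STR, MV and RT. At P21 it was 0 to 2 over whole sections and in the VS, 0 to 4 in the FT and 0 to 1 in the CTX, HP and HY. The count of genes whose change differed between zones was then 1 to 5 for aged and 0 to 1 for P21. DESeq2 called 3 genes in the aged FT, 0 in the aged RT, 0 in the P21 FT, 1 in the P21 HY and 1 in the P21 VS. Plain CPM called 1 in the aged TH and 1 in the P21 VS, and 1 pathway gene lower in the aged sections against 2. Without a filter on low counts 0 were called in the aged TH and 1 in the P21 HP. Thinning to the lowest total gave 1 in the aged TH, 1 in the P21 TH (Ifitm3, lower), 0 in the P21 CTX and 0 in the P21 VS. Interior spots gave 0 in the aged TH, 1 in the aged HY, 1 in the P21 FT, 1 in the P21 VS, 3 in the aged VS, where 3 genes passed the filter, and 0 pairs of gene and zone against the CTX. With 20 principal components 1 was called in the aged MV (Bst2, lower) and 0 in the P21 VS. The study's detection criteria gave 1 in the P21 VS, and leaving out the VS and MV gave 1 for P21 over whole sections (Bst2). The change differed between zones for 0 genes without the FT, for 5 in the aged sections with the VS and for 1 at P21 with the VS. Same-numbered sections did not deviate together (r of deviations 0.0214, -0.0443 and -0.175). With 2 sections per age the deviations of a group mirror each other, so r cannot show whether same-numbered sections were handled together. The replicate block called 1 gene in the P21 VS against 2 and changed no other count by over 1.5 times. With the adult numbers crossed, a pairing chosen after seeing the data, 3 genes were called in the aged sections, 7 in the aged VS and 1 in the P21 HY.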

Other observations

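The neuron list fell in the aged VS, from 4880 and 3908 CPM in the adult to 1258 and 1488 CPM, while the astrocyte list had 2586 and 2395 CPM in the adult and 3048 and 3052 CPM in the aged VS. The MHC class I list, whose proteins present antigen to cytotoxic T cells, summed to 254 and 234 CPM over the whole adult sections. Over the whole aged sections it summed to 380 and 431 CPM, with 6 of 9 called higher, where 23.8% of all genes tested were. In the FT it summed to 292 and 307 CPM in the adult and 1004 and 1662 CPM in the aged sections. There 9 of 9 were called higher, where 18.3% of all genes tested were. The interferon-gamma-induced genes list in the FT had 198 and 190 CPM in the adult and 235 and 696 CPM in the aged sections, so that aged section 2 stood apart from aged section 1. The meningeal fibroblast list fell over whole sections from 132 and 93.1 CPM in the adult to 73.6 and 68.6 CPM in the aged sections. Of its genes, 8 of 10 were called lower, where 4.68% of all genes tested were.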
